A study of Homo sapiens with 12 samples.

Results

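CHGA, CHGB, SYP, ENO2, INSM1, NEUROD1, TUBB3, SCG2 and SCG3, genes whose products mark neuroendocrine cells, were followed in colorectal cancer (CRC) cells with reduced TET1 and with inhibited DNA methylation. They were taken as all probes whose gene name in the scanner files equalled one of these symbols, which gave 9 probes for 9 genes among 50599 distinct probes on the array. The names alone decided which probes were taken. Colo320DM is an established CRC line, known for neuroendocrine features. Stable clones had been selected with G418 after transfection with pcDNA6.2-GW/EmGFP-miR-neg, a plasmid that expresses a microRNA without a target, or with a TET1 knockdown vector of the same backbone, which expresses an artificial microRNA against TET1. There were 3 control clones and 3 TET1 knockdown clones, and each was analysed mock-treated and following an exposure of 72 h to 5-aza-2'-deoxycytidine (5-aza-dC) at 1 µM, with drug and medium renewed daily. This gave 4 groups of 3 arrays, called control mock, knockdown mock, control 5-aza-dC and knockdown 5-aza-dC. Each line was 1 colony that expresses GFP and carries the G418 resistance. Knockdown clones 1 and 2 carried the same TET1 knockdown vector and clone 3 another. This assignment comes from the text of the paper and not from the labels. The clone is therefore the replicate, and clones of a group differ in their origin as well as in their RNA preparation.

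Neuroendocrine cells of the gut store peptide hormones in dense-core granules and release them on stimulation. Granins such as chromogranin A are acidic proteins that are packed into these granules, and INSM1 and NEUROD1 are transcription factors that direct the differentiation of endocrine cells. In most other cells many of these genes are kept silent by REST, a zinc finger repressor that recruits corepressors and histone deacetylases. TET1 oxidises 5-methylcytosine and so opens a route to demethylation, whereas 5-aza-dC is built into DNA and traps DNA methyltransferases.

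All levels below are log2 signals of 1 probe relative to the 75th percentile of its own array, so a level of 0 equals that percentile, and levels of different probes are not compared with each other. TET1 itself lay at 4.23 to 4.67 in control mock, at 3.51 to 3.59 in knockdown mock and at 4.06 to 4.42 in control 5-aza-dC. In knockdown 5-aza-dC it lay at 2.98 in clone 1 and 3.35 in clone 3, but at 4.31 in the array labelled knockdown clone 2, inside the range of the treated control clones. The arrays lay on 2 slides, told apart by their barcode. Slide 1 held 7 arrays, which were control mock clones 1 and 2, all knockdown mock clones and knockdown 5-aza-dC clones 1 and 3. Slide 2 held the other 5, so the array labelled knockdown clone 2 was the only treated knockdown array beside the treated control clones. Without it the count of all probes that differed between treated clones went from 26 of 24989 to 7720 of 24623, and slide and clone type cannot be told apart in that count. Between 45.7% and 52.87% of the probes on an array were well above background. Of 11 colon epithelium markers, 8 were well above background on at least 3 arrays, whereas CDH1 and LGALS4 were so on none. The summed linear level of 7 fibroblast markers was 0.481 to 2.72 in control mock and 1.67 to 4.32 in control 5-aza-dC, and 1.25 to 3.84 and 1.54 to 3.25 in the knockdown groups, with COL1A2 well above background on no array. That of 5 leukocyte markers was 2.57 to 5.71 and 6.2 to 10.6 in the same groups, with MS4A1 well above background on no array, and lay between 1.4 and 2.28 in knockdown mock and 2.61 and 10.7 in knockdown 5-aza-dC. The leukocyte list was higher in treated than in mock arrays of both clone types without overlap, the ranges of the fibroblast list overlapped, and their part in the results was not tested. In RNA of whole cultures, fewer cells with a transcript and less transcript per cell cannot be told apart.

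The 9 probes differed in how often they gave a signal. TUBB3, the beta tubulin of neurons and of several carcinomas, was well above background on all 12 arrays, and ENO2, the neuron-specific enolase of glycolysis, on 11. CHGB was so on 6 arrays, CHGA on 4, SCG3 and SYP on 3 each and NEUROD1 on 1. INSM1 and SCG2 were well above background on none. A probe entered a test when it was well above background on at least 3 arrays of the fit, so 6 of the 9 genes could be tested over the 12 arrays, and 2 to 6 in the comparisons of 2 groups. CHGA had 3 of its 4 such arrays in the treated control group, in which it was high. SYP and SCG3 had 2 there and 1 in control mock, and CHGB had 3 there and the others in knockdown clones. Passing was thus tied in part to a high level in treated control clones, so that counts over the tested genes describe these arrays and support nothing further.

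**Figure D1:**
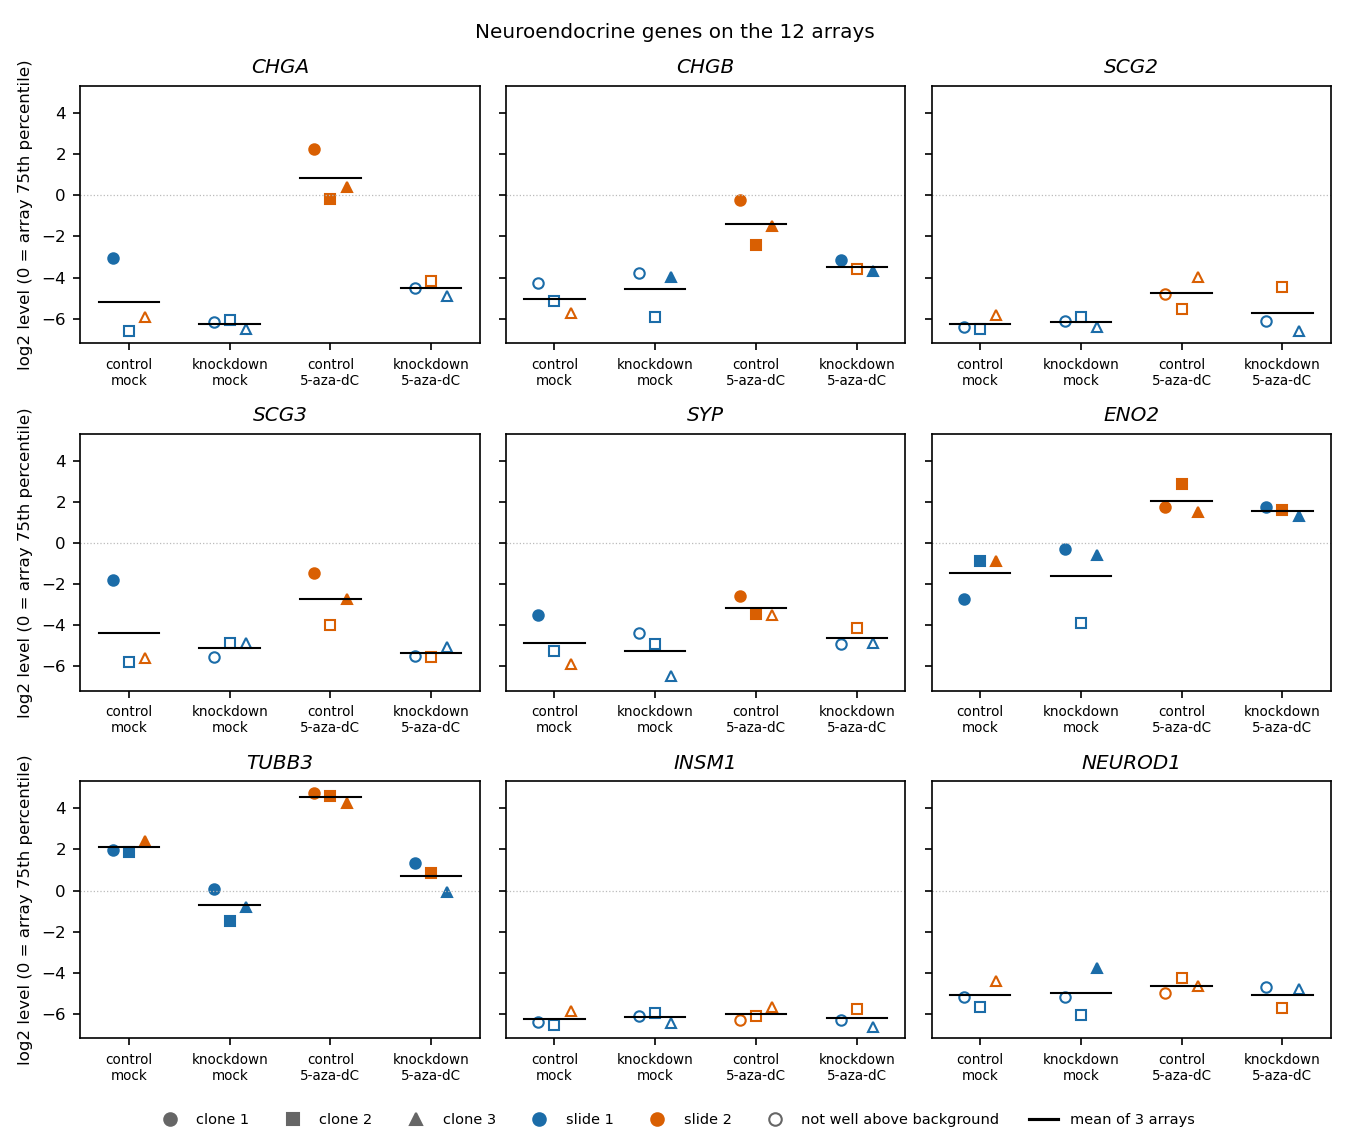
Log2 level relative to the array 75th percentile for the 9 genes, with 1 point per array, shaped by clone and coloured by slide; open points were not well above background and bars are means of 3 arrays. TUBB3 is filled on all 12 arrays, CHGA is bright in the 3 treated control clones, and INSM1 and SCG2 are open on every array.

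After 5-aza-dC, the granins CHGA and CHGB, the enolase ENO2 and the tubulin TUBB3 were higher in control clones. These were 4 of 6 tested genes past an adjusted p of 0.05 in limma, whereas 3.83% of all 24626 tested probes were called higher. Of the 1281 probes called in either direction 73.6% were higher, a share of 61.6% after quantile normalization and 34.9% with the array median as the scale, which moved the median of all tested probes from -0.02 to -0.23 and changed none of the 4 calls. The median log2 difference of the 6 tested genes was 2.98. In 4 of the 6 tested genes (CHGA, CHGB, ENO2 and TUBB3) all treated control clones lay above all mock clones, which held for 13.6% of the tested probes. It held for SCG2 too, but SCG2 was well above background on no array and was not tested.

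CHGA encodes chromogranin A, a granin widely used as a marker in tissue and serum. Its promoter is shown because it holds the only cAMP response element among the windows examined, TGACGTCA, which begins 54 bases before the annotated start and contains a CG. The window is chr14:92922900-92923199 on the plus strand of GRCh38.p14, with 250 bases before and 50 from the start, as given by RefSeq, and capitals mark each CG and the cAMP response element.
CHGA: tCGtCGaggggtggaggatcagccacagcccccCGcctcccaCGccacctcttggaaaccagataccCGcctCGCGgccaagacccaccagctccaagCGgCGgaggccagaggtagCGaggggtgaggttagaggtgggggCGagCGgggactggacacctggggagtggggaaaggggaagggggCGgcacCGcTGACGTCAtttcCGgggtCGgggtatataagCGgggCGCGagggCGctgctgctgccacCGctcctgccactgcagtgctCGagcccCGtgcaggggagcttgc
The element was found in 1.85% of all 35116 promoter windows of the same length, and the 24 CGs of the CHGA window exceeded those of 66.1% of windows.

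The CHGA probe (hg19, chr14:93401545-93401604) read -3.06, -6.57 and -5.91 in control mock clones 1, 2 and 3, and 2.27, -0.18 and 0.40 in the same clones after 5-aza-dC. Clone 1 was the only untreated control clone in which the probe was well above background, and every treated clone exceeded it. The difference was 6.01 ± 1.04 (SE, n = 3 against 3; limma adjusted p = 0.029). Since the probe was measured in only 1 of 3 mock clones, this is a fitted value and no measured fold. Each clone rose, by 5.33, 6.39 and 6.31. Within slide 2, which held mock clone 3 and all treated clones, the difference was 6.73. With the slide as a block it was 6.73 with an adjusted p of 0.125.

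CHGB encodes chromogranin B, the second large granin. No promoter window was matched for it, and the probe that measured it (hg19, chr20:5904307-5904366) is shown instead, in lower case throughout.
CHGB probe: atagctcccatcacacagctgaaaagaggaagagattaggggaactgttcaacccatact
CHGB read -4.28, -5.15 and -5.74 in control mock clones and -0.21, -2.42 and -1.50 after 5-aza-dC. No mock control array was well above background and all treated ones were. CHGB was at least 6.74-fold higher after treatment, with group means of -5.06 ± 0.73 and -1.38 ± 1.11 (SD, n = 3 each) and an adjusted p of 0.0265 in limma. On slide 2 alone the difference was 4.37, and the adjusted p with slide as a block was 0.0911.

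The other granins gave little signal. SCG3, secretogranin III, which anchors granins to the granule membrane, read -1.78, -5.77 and -5.60 in control mock and -1.44, -3.98 and -2.72 after 5-aza-dC. The groups overlapped, and only clone 1 was well above background among the mock controls. Its difference of 1.67 ± 1.19 (SE, n = 3 against 3) did not pass (limma adjusted p = 0.391). SCG2, secretogranin II, the precursor of secretoneurin, lay between -6.51 and -5.81 in control mock and between -5.54 and -3.97 in control 5-aza-dC, with no array well above background and no test. The SCG3 window (chr15:51681253-51681552, plus strand, GRCh38.p14) is shown because it was the only one of those examined with the first part of the REST site, TTCAGCACC, 8 bases past the start, which 0.376% of all windows held. The second part, GGACAG, followed 25 bases past the start and was found in 20.5% of all windows. Capitals mark each CG and the first part of the REST site.
SCG3: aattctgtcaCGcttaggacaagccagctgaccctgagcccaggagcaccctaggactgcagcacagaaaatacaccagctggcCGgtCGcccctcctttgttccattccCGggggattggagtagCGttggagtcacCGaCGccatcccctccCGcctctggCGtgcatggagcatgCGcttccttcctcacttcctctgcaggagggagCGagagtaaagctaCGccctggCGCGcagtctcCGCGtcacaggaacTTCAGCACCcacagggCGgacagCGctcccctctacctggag

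SYP encodes synaptophysin, a membrane protein of small synaptic-like vesicles. It read -3.48, -5.24 and -5.89 in control mock and -2.58, -3.45 and -3.50 in control 5-aza-dC. Mock clone 1 was again the brightest of its group and lay between the treated clones, so the groups overlapped. The difference was 1.69 ± 0.63 (SE, n = 3 against 3), which did not pass (limma adjusted p = 0.159). CHGA, SCG3 and SYP thus shared the same brighter array in the control mock group, whereas ENO2 was lowest in that array.

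ENO2 was measured on all arrays of both control groups. It read -2.73, -0.86 and -0.86 before and 1.74, 2.87 and 1.50 after 5-aza-dC, so that the groups were apart by more than their spread. The difference was 3.51 ± 0.61 (SE, n = 3 against 3; limma adjusted p = 0.0293), an 11.4-fold higher signal. It was 2.89 on slide 2, and 2.89 with an adjusted p of 0.194 with slide as a block. The ENO2 window (chr12:6914330-6914629, plus strand, GRCh38.p14) is shown for its CG content. Capitals mark each CG.
ENO2: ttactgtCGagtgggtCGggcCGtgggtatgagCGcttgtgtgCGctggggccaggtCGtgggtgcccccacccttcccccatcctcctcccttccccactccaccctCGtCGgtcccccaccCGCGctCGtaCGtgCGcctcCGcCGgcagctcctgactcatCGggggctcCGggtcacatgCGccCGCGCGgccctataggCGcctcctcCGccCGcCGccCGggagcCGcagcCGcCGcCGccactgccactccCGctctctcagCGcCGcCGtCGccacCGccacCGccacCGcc
Its 38 CGs exceeded those of 90.1% of windows, and it held 2 GC boxes, GGGCGG, found in 45% of all windows.

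TUBB3 was measured on every array. It read 1.99, 1.88 and 2.42 in control mock and 4.74, 4.62 and 4.27 in control 5-aza-dC, with no overlap. The difference of 2.45 ± 0.22 (SE, n = 3 against 3; limma adjusted p = 0.00306) was a 5.45-fold higher signal. It was 2.13 within slide 2 and kept an adjusted p of 0.0248 with slide as a block, as none of the other 3 called genes did. RefSeq annotates 2 starts of TUBB3 (plus strand, GRCh38.p14), at windows chr16:89921675-89921974 and chr16:89923092-89923391, and both are shown because they differ widely in CG content. Capitals mark each CG.
TUBB3 start 1: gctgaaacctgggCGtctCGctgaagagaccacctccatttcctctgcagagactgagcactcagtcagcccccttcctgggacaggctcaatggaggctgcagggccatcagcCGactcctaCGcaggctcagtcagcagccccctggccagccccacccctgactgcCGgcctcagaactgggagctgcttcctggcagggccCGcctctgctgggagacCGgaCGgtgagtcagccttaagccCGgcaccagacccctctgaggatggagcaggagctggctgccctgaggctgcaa
TUBB3 start 2: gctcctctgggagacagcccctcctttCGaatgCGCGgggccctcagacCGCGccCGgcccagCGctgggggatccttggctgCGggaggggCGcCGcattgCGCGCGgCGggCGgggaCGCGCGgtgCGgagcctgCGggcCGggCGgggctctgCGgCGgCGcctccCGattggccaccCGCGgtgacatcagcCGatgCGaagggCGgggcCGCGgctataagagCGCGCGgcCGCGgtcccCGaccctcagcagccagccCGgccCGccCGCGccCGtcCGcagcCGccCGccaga
The first held 9 CGs, more than 41.6% of all windows, and the second 47, more than 97.6%. The array probe lies at chr16:90002437-90002496 of hg19.

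The calls in control clones depended on which clones were in the fit, as did the calls over all probes. Without control clone 1 or control clone 2, 0 of the tested genes were called in limma, beside 2 of 22540 and 0 of 22678 probes. Without control clone 3 ENO2 and TUBB3 were called, beside 5337 of 23377 probes. That fit left the mock arrays on slide 1 and the treated arrays on slide 2, so slide and treatment cannot be told apart in it. CHGB no longer passed the filter in any of these fits, and CHGA did not without clone 1, and had adjusted p of 0.363 and 0.058 without clones 2 and 3.

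**Figure D2:**
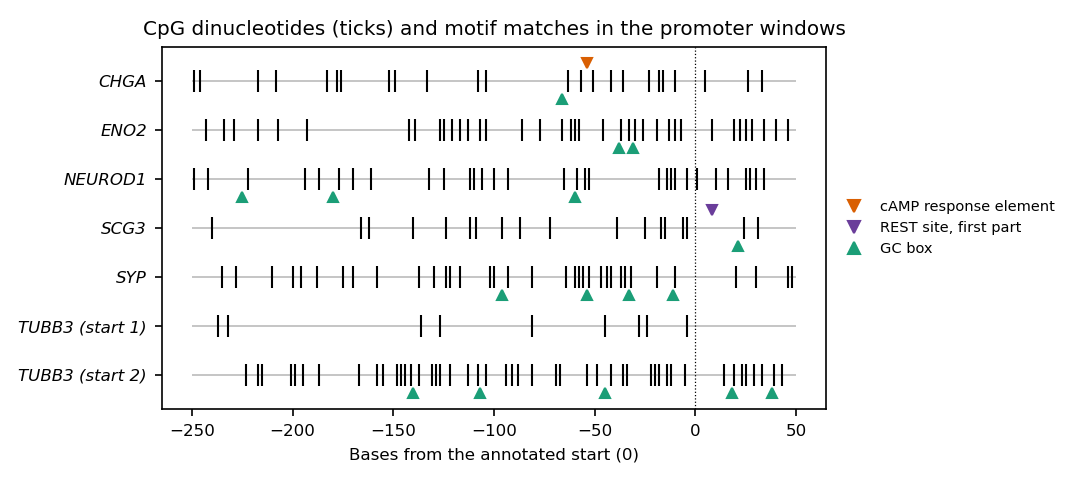
Positions of CG dinucleotides (ticks) in the 7 promoter windows of the 6 genes with a match, in bases from the annotated start at 0; downward triangles mark the cAMP response element and the first part of the REST site, upward triangles GC boxes. The 2 TUBB3 starts hold 9 and 47 CGs, and the cAMP response element lies 54 bases before the CHGA start.

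The CG counts of the genes that were not called lay within the range of the called genes, from 9 to 47 at the 2 TUBB3 starts. Without TUBB3 start 1 the lowest was the 24 of CHGA, above that of SCG3, and which start was in use was not examined. SYP held 35 and NEUROD1 31 CGs, above 85.9% and 79.3% of windows, and SCG3 held 18, above 55.5%. The median over all windows was 14. CHGB, INSM1 and SCG2 had no matched window. DNA methylation was not analysed here, so these counts describe the reference sequence only.

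The transcription factors INSM1 and NEUROD1 gave almost no signal. INSM1 lay between -6.61 and -5.67 over all 12 arrays and its 10 spots were not well above background on any. NEUROD1 lay between -6.02 and -3.75, and its highest value, in knockdown mock clone 3, was the only one well above background. Neither passed the filter in any comparison, and an equally low signal can stand for very different low transcript levels.

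In knockdown clones none of the 9 genes was called after 5-aza-dC. Among 25384 probes tested, 2.04% were called higher, and 0 of the 3 tested genes were (limma), whereas 2 of the 3 had an unadjusted p under 0.05, beside 9.16% of all probes tested. ENO2 read -0.28, -3.91 and -0.59 in knockdown mock and 1.76, 1.58 and 1.33 in knockdown 5-aza-dC. All treated clones lay above all mock clones, and the difference of 3.15 ± 0.94 (SE, n = 3 against 3) had an adjusted p of 0.316 in limma. ENO2 was not well above background in mock clone 2, and without that clone the difference was 1.98 (adjusted p = 0.113). TUBB3 read 0.09, -1.45 and -0.79 before and 1.33, 0.85 and -0.05 after treatment, with a difference of 1.43 ± 0.50 (SE, n = 3 against 3; limma adjusted p = 0.451). Its groups overlapped, since treated clone 3 stayed below mock clone 1, although each clone by itself was higher after treatment. CHGB read -3.79, -5.89 and -3.95 before and -3.13, -3.59 and -3.67 after, a difference of 1.08 ± 0.57 (SE, n = 3 against 3; limma adjusted p = 0.642).

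CHGA stayed dim in every knockdown clone. It read -6.17, -6.04 and -6.49 in knockdown mock and -4.49, -4.18 and -4.88 in knockdown 5-aza-dC. None of these 6 arrays was well above background, so the gene was not tested there and no fold is given. SCG3 at -5.56 to -4.86 and -5.52 to -5.04, and SYP at -6.47 to -4.37 and -4.90 to -4.11, were likewise never well above background in knockdown clones.

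Over all 6 clones, which share 1 estimate of the spread, the same 4 genes were called as in control clones. That was 4 of 6 tested genes, beside 7.29% of 27276 probes called higher. Of the 3612 probes called in either direction 55% were higher, a share of 45% after quantile normalization and 19.9% with the array median as the scale, under which the same 4 genes were called. The differences in limma were 3.86 for CHGA (adjusted p = 0.00203), 3.33 for ENO2 (0.00638), 2.38 for CHGB (0.00828) and 1.94 for TUBB3 (0.00205), with SE between 0.30 and 0.62. All 4 were past the threshold with slide as a block, the highest adjusted p being 0.0462 for ENO2. This average shares its arrays with both comparisons above. For CHGA it combines 6.01 in control clones with 1.71 in knockdown clones. No knockdown array of CHGA was well above background, and the gene was not tested there. For CHGB it combines 3.68 with 1.08, and the latter was not called. The calls over all clones therefore do not by themselves show a rise in knockdown clones.

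**Figure D3:**
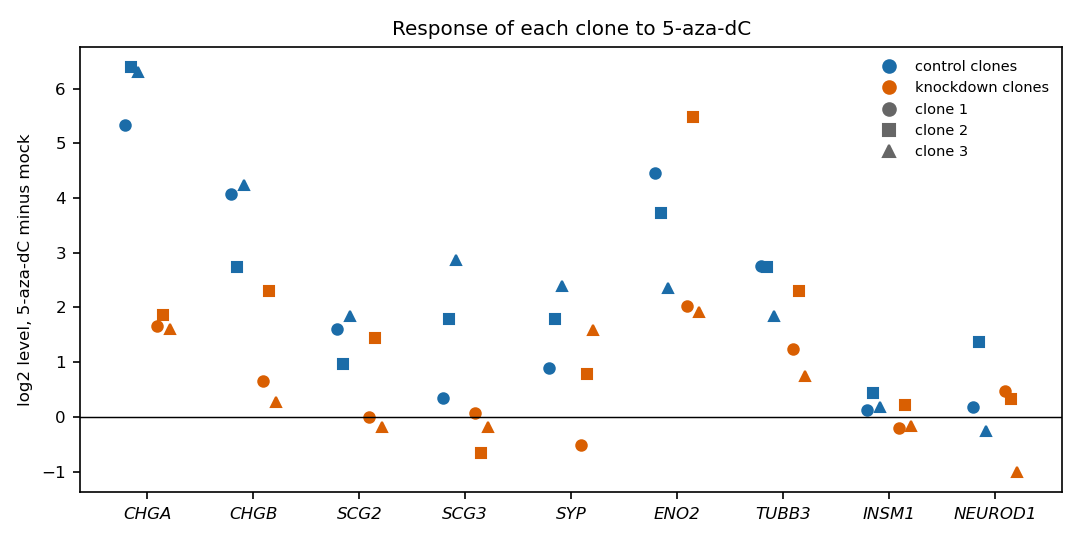
Log2 level after 5-aza-dC minus that after mock treatment for each clone, with control clones in blue and knockdown clones in orange. The control clones lie above the knockdown clones without overlap for CHGA, CHGB and SCG3, and the clone types overlap for ENO2 and TUBB3.

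The response to 5-aza-dC was compared between clone types clone by clone. CHGA changed by 6.01 ± 0.59 in control clones and 1.71 ± 0.13 in knockdown clones (SD, n = 3 each), although the untreated and the treated knockdown levels were both not well above background. The response of CHGB was 3.68 ± 0.83 against 1.08 ± 1.07, and that of SCG3 1.67 ± 1.27 against -0.26 ± 0.37. For these 3 genes no knockdown clone reached a control clone, with p = 0.1 each in a two-sided exact permutation test, the smallest p that 3 against 3 clones allow. All 3 knockdown clones lay below all 3 control clones in this response in 4.68% of 27200 probes. These 3 genes had passed the filter at least in part through the treated control group, in which they were high. ENO2 responded by 3.51 ± 1.07 and 3.15 ± 2.03, which did not differ beyond the spread (exact permutation p = 0.8). The TUBB3 responses of 2.45 ± 0.52 and 1.43 ± 0.80 overlapped as well (exact permutation p = 0.2).

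The interaction of clone type and drug, fitted over all probes, called 0 of the 6 tested genes in limma, and 0.0293% of 27276 probes. At an unadjusted p under 0.05 it gave 2 of the 6, beside 673 probes in all. These were CHGA, with -4.30 ± 1.18 (SE, unadjusted p = 0.00427) and CHGB, with -2.61 ± 0.93 (SE, unadjusted p = 0.0178), both with an adjusted p of 0.9995 in limma. The interaction of ENO2 was -0.37 ± 1.23 (SE). A difference in response between the clone types was therefore not called for any of the 9 genes, and the SE of CHGA leaves a wide range of sizes. With the clone as a replicate block, the adjusted p for CHGA was 0.061.

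Before treatment, none of the genes was called between knockdown and control clones. Of 2 tested genes 0 were called lower in limma, beside 0.105% of 24748 probes. TUBB3 read 0.09, -1.45 and -0.79 in knockdown mock against 1.99, 1.88 and 2.42 in control mock, so that every knockdown clone lay below every control clone, as was the case in 9.11% of tested probes. Its difference of -2.81 ± 0.41 (SE, n = 3 against 3) had an unadjusted p of 0.000323 and an adjusted p of 0.119 in limma. Within slide 1, which held 3 knockdown and 2 control clones, it was -2.65. ENO2 differed by -0.11 ± 1.05 (SE, n = 3 against 3; limma adjusted p = 0.966), and its sign changed in 6 alternatives. The remaining 7 genes were too dim to test, with CHGA, SCG3 and SYP well above background only in control clone 1.

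After 5-aza-dC, TUBB3 was lower in knockdown clones. It was the 1 gene called of 4 tested, beside 0.08% of 24989 probes called lower. The knockdown clones read 1.33, 0.85 and -0.05 and the control clones 4.74, 4.62 and 4.27, a difference of -3.83 ± 0.38 (SE, n = 3 against 3; limma adjusted p = 0.0407) or 14.3-fold. The array labelled knockdown clone 2, whose TET1 level was that of the control clones, read 0.85 for TUBB3 and was far below them. Beside the 3 control clones on its own slide it differed by -3.69, and without it the difference was -3.90 (limma adjusted p = 0.00504). Slide and clone type cannot be told apart in the fit without it. The call was lost with slide as a block (adjusted p = 0.0891) and without each of the other 5 clones in turn, where the difference lay between -4.14 and -3.45.

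CHGA was at least 28.5-fold brighter in treated control clones than in treated knockdown clones, with means of 0.83 ± 1.28 and -4.52 ± 0.35 (SD, n = 3 each) and an adjusted p of 0.0592 in limma. No knockdown array was well above background and all control arrays were. Without knockdown clone 2 the adjusted p was 0.00687, with slide and clone type then inseparable, and beside the control clones on its slide that clone differed by -5.01. CHGB differed by -2.09 ± 0.54 (SE; limma adjusted p = 0.18), with control clones at -2.42 to -0.21 and knockdown clones at -3.67 to -3.13. ENO2 differed by -0.48 ± 0.38 (SE; limma adjusted p = 0.488) and its groups overlapped. SCG3 and SYP, not tested here, were at least 2.45-fold and at least 1.78-fold brighter in control clones, from 2 of 3 control arrays well above background each and no knockdown array. Of the 4 tested genes, CHGA, CHGB and TUBB3 had all knockdown clones below all control clones, beside 13.3% of the tested probes. This held for SCG3 and SYP too, which are not among the tested probes. The treated control arrays also served in the comparison with mock treatment, so both comparisons depend on them.

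**Figure D4:**
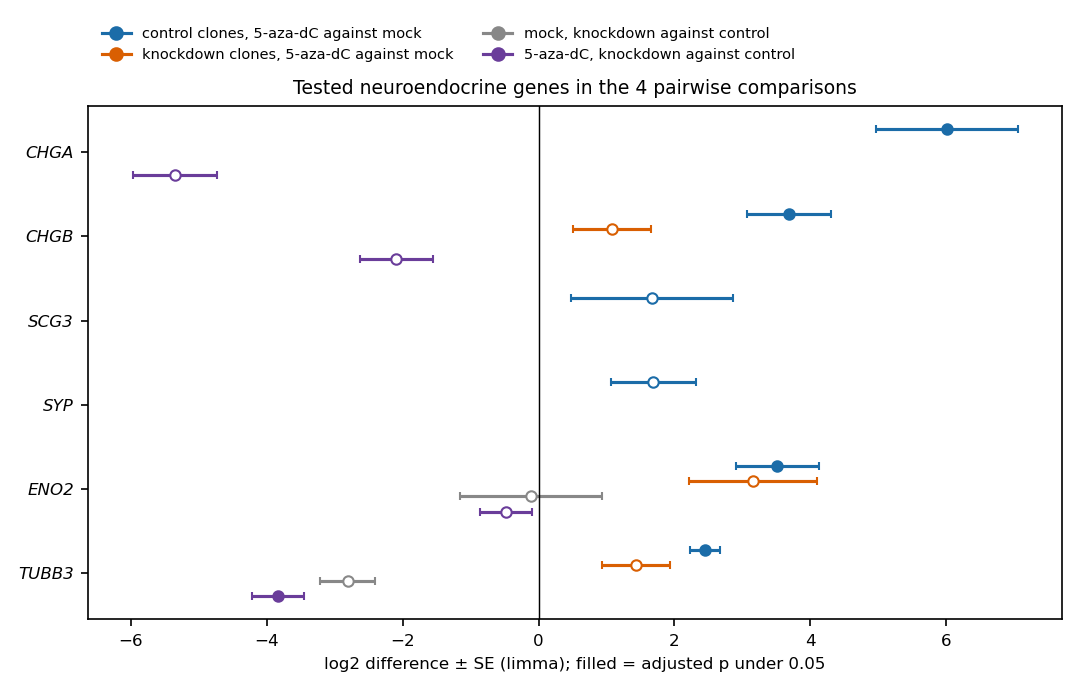
Log2 difference with its SE from limma for the 6 genes tested in at least 1 of the 4 pairwise comparisons, coloured by comparison; filled points had an adjusted p under 0.05. The 4 filled blue points are CHGA, CHGB, ENO2 and TUBB3 after 5-aza-dC in control clones, and the only other filled point is TUBB3 in treated knockdown against treated control clones.

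Over all arrays, with the clone as a random block (correlation 0.332), TUBB3 and CHGA were lower in knockdown clones. These were 2 of 6 tested genes, beside 0.865% of 27276 probes called lower. TUBB3 differed by -3.32 ± 0.35 (SE, limma adjusted p = 0.00173) and ranked 27 by p among all probes. CHGA differed by -3.20 ± 0.60 (SE, limma adjusted p = 0.0333), and its adjusted p was 0.0956 with slide as a block and 0.149 with the arrays of a clone averaged. Without control clone 1 it was no longer tested, and without control clone 2 or 3 or knockdown clone 1 or 3 its adjusted p lay between 0.0635 and 0.177. CHGA passed the filter through 3 treated control arrays and 1 mock control array, and no knockdown array was well above background. Its difference over all arrays is therefore a fitted value. It combines -5.35 between treated clones with -1.05 between mock clones, where the groups overlapped and CHGA was not tested. The differences of SCG3 (-1.67 ± 0.71), SYP (-0.91 ± 0.52), CHGB (-0.79 ± 0.53) and ENO2 (-0.30 ± 0.74) did not pass, with adjusted p of 0.203, 0.304, 0.368 and 0.824 in limma.

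The order of the groups differed between genes. TUBB3 was highest in control 5-aza-dC (4.54 ± 0.25), followed by control mock (2.10 ± 0.28), knockdown 5-aza-dC (0.71 ± 0.70) and knockdown mock (-0.72 ± 0.78; SD, n = 3 each), and only the last pair overlapped. ENO2 was high in both treated groups (2.03 ± 0.73 and 1.55 ± 0.22) and low in both mock groups (-1.48 ± 1.08 and -1.59 ± 2.01), with overlap within each pair. CHGA was apart in control 5-aza-dC alone, and the other 3 groups were measured well above background on 1 array in all.

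TUBB3 was the only one of the 9 genes measured on every array, and 5 other genes followed it most closely over the 12 arrays, F8A2 (r = 0.963), CXorf40B (0.959), CYTH2 (0.952), C10orf35 (0.951) and KRTAP3-2 (0.95). The arrays share clones and slides, and the correlations are a description. F8A2 covered a narrow range, from 1.99 ± 0.07 in knockdown mock to 3.01 ± 0.05 in control 5-aza-dC, whereas KRTAP3-2 covered -5.69 ± 0.81 to -0.62 ± 0.40 (SD, n = 3 each).

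Genes that act beside the 9 markers were examined as lists. Of 13 genes of granule cargo and processing, 5 were tested and 1 was called, VGF, the precursor of several neuropeptides. VGF lay between -0.93 and 0.74 in control mock, 2.50 and 4.45 in control 5-aza-dC, -3.69 and -1.19 in knockdown mock, and -1.59 and -0.68 in knockdown 5-aza-dC. Its range in treated control clones lay above the other 3 groups, and its level in knockdown clones lay below that of control clones under the same treatment. It was higher after 5-aza-dC in control clones by 3.26 ± 0.64 (SE, limma adjusted p = 0.041) and lower in knockdown clones over all arrays by -3.37 ± 0.59 (SE, limma adjusted p = 0.0273). These calls of VGF were lost in 9 of 17 alternatives (adjusted p up to 0.384) and in 8 of 16 (up to 0.124), with the direction kept. CPE, which trims prohormones, PAM, which amidates peptides, and PCSK1N, an inhibitor of the convertase PCSK1, were well above background on all 12 arrays, and 0 of these 3 were called in limma. The prohormone convertases PCSK1 and PCSK2, the amine transporter SLC18A1 and the decarboxylase DDC were well above background on no array. Among 12 genes of vesicle release 7 were tested and 0 called in limma, with at most 4 at an unadjusted p under 0.05, in knockdown against control over all arrays, where 22.7% of all probes were under it. SNAP25, a SNARE protein, was among the nearest, with -2.38 ± 0.57 (SE, limma adjusted p = 0.0671) for knockdown over all arrays. SNAP25 lay between 4.84 and 5.54 in control mock and between 1.89 and 4.45 in knockdown mock.

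Of 13 genes of the neuronal cytoskeleton and surface, 7 were tested over the 12 arrays and NEFM and MAPT were called higher. NEFM, the medium neurofilament, was well above background on no mock array and on all treated ones. It was at least 39.7-fold higher after 5-aza-dC in control clones (adjusted p = 0.00185) and at least 12.3-fold higher in knockdown clones (adjusted p = 0.00162, both limma), with treated levels of 0.57 to 2.36 and -1.31 to 0.56. MAPT, the axonal protein tau, was higher by 1.19 ± 0.34 (SE, limma adjusted p = 0.0441) over all clones, a call lost in 9 of 17 alternatives (adjusted p up to 0.247). In knockdown against control clones over all arrays MAPT was higher by 1.23 ± 0.37 (SE, limma adjusted p = 0.109), which did not pass. Its other probe gave 1.25 there and was past the threshold (limma adjusted p = 0.0489). This direction was opposite to that of TUBB3, CHGA and VGF. Among 12 neuroendocrine transcription factors 5 were tested, and PAX6 was called, with 2.17 ± 0.60 (SE, limma adjusted p = 0.0399) over all clones. PAX6 was well above background on all 3 treated control arrays, 1 mock control array and 1 treated knockdown array, so this is a fitted value, and the call was lost in 8 of 16 alternatives (adjusted p up to 0.189). NEUROG3, ISL1 and MYT1 were well above background on all 12 arrays and not called, with ISL1 between -2.89 and -2 in control and -2.09 and -1.38 in knockdown clones. NEUROD2, NKX2-2 and PROX1 were well above background on none, as INSM1 was. Of 14 gut hormones 5 were tested, and GCG, the glucagon precursor, was called lower over all clones, by -1.42 ± 0.32 (SE, limma adjusted p = 0.0185), a call lost in 6 of 16 alternatives (adjusted p up to 0.112).

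All 9 genes of the REST repressor complex were measured on all 12 arrays. REST itself lay between -0.32 and -0.13 in control mock and between -0.80 and -0.57 in control 5-aza-dC, without overlap, and the difference of -0.45 ± 0.16 (SE, n = 3 against 3) did not pass (limma adjusted p = 0.142). It lay between -0.71 and -0.43 in knockdown mock and between -0.74 and -0.59 in knockdown 5-aza-dC. RCOR2, a REST corepressor, was the 1 member called, higher after 5-aza-dC by 2.07 ± 0.23 in control clones (SE, limma adjusted p = 0.00578, lost in 5 of 17 alternatives) and 2.33 ± 0.38 over all clones (SE, limma adjusted p = 0.00282). The median of the 9 genes over all clones was -0.02. Of 9 other beta tubulin and enolase genes, 7 were tested. TUBB2A was called higher in control clones (1.56, limma adjusted p = 0.041), but its other probe gave 0.47 (adjusted p = 0.494) and the call was lost in 11 of 17 alternatives. Over all clones ENO3 was higher by 0.70 (adjusted p = 0.00466) and TUBB lower by -0.59 (adjusted p = 0.0402, both limma). The TUBB call was lost in 12 of 17 alternatives (adjusted p up to 0.268). Of these genes 0 were called in limma between clone types, where TUBB3 was. At an unadjusted p under 0.05 4 of these genes differed between clone types over all arrays, beside 22.7% of all probes tested.

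**Figure D5:**
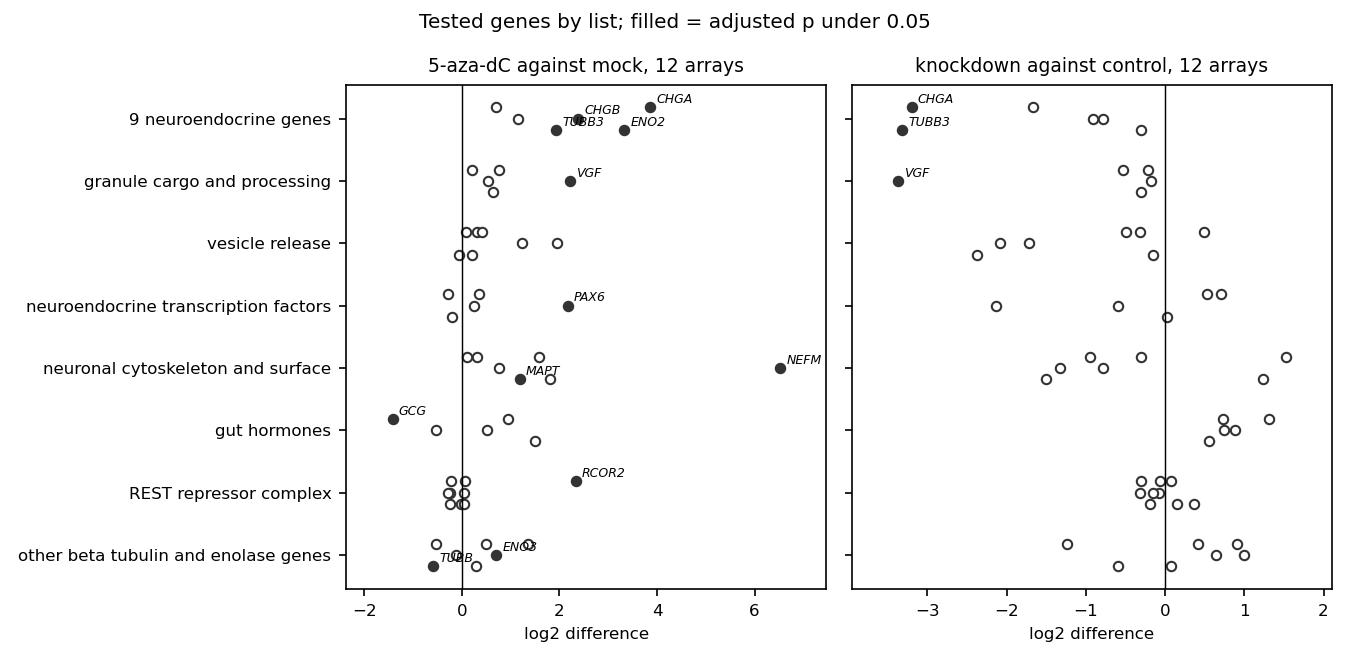
Log2 difference of each tested gene by list, for 5-aza-dC against mock over all clones (left) and knockdown against control over all arrays (right); filled points had an adjusted p under 0.05 and are named. Between clone types TUBB3, CHGA and VGF are the filled points, and NEFM at 6.52 is farthest from 0 after 5-aza-dC.

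Genes of other cell types were called too. Of 8 tested colon epithelium markers, KRT19 (3.78) and EPCAM (3.76) were higher after 5-aza-dC over all clones, and KRT20 was higher in control clones (1.35, a call lost in 8 of 17 alternatives). Among fibroblast markers COL1A1 (1.99) and THY1 (2.29) were higher over all clones, with adjusted p between 0.000143 and 0.0216 for these 5 genes in limma. The rise of CHGA, CHGB, ENO2 and TUBB3 thus occurred beside a rise of single markers of colon epithelium and fibroblasts, and its part in the results was not tested.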

How the data were processed

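RNA of 12 cultures was labelled with Cy3 and hybridised to one-colour Agilent arrays. The authors deposited the intensity of each spot, corrected for background and detrended within the array by Feature Extraction 10.7.3.1 per the file headers, without normalization between arrays. Their later normalization is not given in the sources used here. The deposited series table repeats these intensity values to within 0.497%.

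Of 62976 spots, 4259 controls and those with an outlier mark were dropped, spots of a probe were averaged as log2, and each array was centred on its 75th percentile. Probes well above background in at least 50% of their spots on at least 3 arrays of a fit were tested by the two-sided test of limma 3.58.1 in R 4.3.3 (lmFit, then eBayes), with Benjamini-Hochberg adjustment over all probes tested and a threshold of 0.05. Knockdown and control over all arrays were compared with duplicateCorrelation and the clone as block, and only the arrays compared entered each pairwise fit. The fits were tested on simulated data. The number of arrays limits the precision, and p-values cover the spread between clones.

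Folds given as "at least" apply where no array of the dimmer group was well above background, and set the brighter mean against a floor, which on each dim array is the probe's own signal or, if higher, the lowest signal of any probe well above background. Arrays of the same vector and clone number are the same clone per the labels, and their deviations from the group means correlated at 0.213 to 0.525 across probes. In the lists, the probe with the highest mean stood for a gene, and the genes named are those called (at most the 4 with the largest difference per list) or, where none was, the 2 with the smallest adjusted p, beside single genes that were well above background on no array. Values of some genes that this rule selects are not reported here. The 9 genes, the lists and the tests were chosen with earlier results of these data known. Promoter windows come from RefSeq on GRCh38.p14, matched by symbol for 6 of the 9 genes, and were searched on both strands for CG, TGACGTCA, TTCAGCACC, GGACAG and GGGCGG. Probe positions are on hg19 as in the files. Alternatives were other normalizations, scales and filters, outlier spots kept, the series table, slide and clone as blocks, all 12 arrays in a fit, the methods' t-test, the mean of all probes of a gene, and leaving out each clone.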

Additional observations from a re-analysis of the deposited data

How the results depend on the processing

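The number of the 9 genes called after 5-aza-dC in control clones (4) fell to 3 with normexp background correction and quantile normalization, and to 3 with all 12 arrays and slide as a block. It fell to 2 with probes well above background on every array, 1 with slide as a block and 1 with the methods' t-test after adjustment. With clone and slide as blocks it was 0, and without 1 clone between 0 and 2. In knockdown clones (0) it was 1 without a filter and 1 with clone and slide as blocks. Over all clones (4) it was 1 with probes well above background on every array and between 3 and 4 without 1 clone, 3 being without control clone 1, where CHGA was not tested. For treated knockdown against treated control clones (1) it was 2 with the array median as the scale, 2 with all 12 arrays in the fit, 0 without a filter, 0 with every array well above background, 0 with slide as a block, 0 with the methods' t-test and between 0 and 2 without 1 clone. For mock clones (0) it was 1 with all 12 arrays, with or without slide. For knockdown over all arrays (2) it was 1 without a filter, 1 with every array well above background, 1 with slide as a block, 1 with the arrays of a clone averaged and between 1 and 2 without 1 clone. The interaction gave 0 in every alternative. With the clone as a replicate block, the paired fits of 5-aza-dC called 4 of the genes in control clones, 0 in knockdown clones and 4 over all clones as without it, and no replicate block left 2 for knockdown over all arrays. The clone block by itself changed no call among these genes, and with the slide added CHGB was no longer called over all clones.

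Among the 6 genes tested, ENO2 was the only one whose difference changed sign under the alternatives, and it passed no test between clone types. Between mock clones (-0.11) it was 0.14 with normexp, 0.2 with slide as a block and 0.05 with all 12 arrays and slide, and lay between -0.77 and 1.05 without 1 clone. Over all arrays (-0.3) it was 0.45 with slide as a block and between -0.68 and 0.28 without 1 clone. Its interaction (-0.37) was 0.5 with clone and slide as blocks and between -1.54 and 0.24 without 1 clone. The cause of these changes was not tested. INSM1, NEUROD1 and SCG2 entered only the fits without a filter, so they have no tested main value to set beside alternatives. Some of their differences, all near background, had the other sign within a slide (SCG2 between treated clones, -0.96 and 0.28 within slide 2). Over the 6 genes tested, 461 values kept direction and side of the threshold, 35 kept the direction only and lost the call, 6 gained it and 13 changed sign. For the genes of the lists chosen by the naming rule, these were 300, 105, 8 and none.

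The count of all probes called varied more. Over the alternatives it ran from 0 to 5337 for 5-aza-dC in control clones (1281, 0 without control clone 2 or with clone and slide as blocks, and 5337 without control clone 3), from 0 to 843 in knockdown clones (520), from 1409 to 8549 over all clones (3612, 8549 with the array median as the scale), from 4 to 114 between mock clones (34), from 0 to 7720 between treated clones (26), from 40 to 4640 over all arrays (468, 4640 without knockdown clone 2) and from 1 to 13 for the interaction (8). In the fits with 5337 and 7720 calls each group lay on its own slide, so slide cannot be told apart from treatment or clone type there. Each gene had 1 probe, so averaging the probes of a gene moved none of its differences. CHGA, CHGB, SCG3 and SYP were near background in most groups, so their differences are bounded by signal over background.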
